A study of Mus musculus with 6 samples.

Results

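The genes described here are 10 transcripts by which fat tissue takes up fatty acids and handles glycerol: Lpl, Vldlr, Cd36, Slc27a1, Slc27a4, Fabp4, Fabp5, Acsl1, Aqp7 and Pck1. They are a list of gene symbols put together by function, with earlier results of these data known, and all 10 were found among the 14861 genes of the deposited table. The data are RNA sequencing libraries of polyadenylated RNA from the inguinal pad, a white fat depot under the skin of the groin. The Flox group had 3 libraries from mice with the floxed Igf1r gene (from the line B6;129-Igf1rtm2Arge/J) and no stated Cre. The AdIGF1RKO group had 3 libraries from mice in which this gene (Igf1rfl/fl) was combined with Adipoq-Cre (from the line B6; FVB-Tg (Adipoq-Cre)1Evdr/J). Igf1r encodes the insulin-like growth factor 1 receptor, and the adiponectin promoter that drives Cre is active in adipocytes, so the other cells of the pad keep the receptor gene. Controls were littermates, both groups ate the normal chow D12450J, which supplies 10% of energy as fat, over 24 weeks, and every mouse was dissected after an overnight fast. The labels give no age and do not name the deleted exons. Numbered titles speak of mice, but nothing in the labels says how the animals were drawn from litters, so p-values measure the spread between these samples.

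Adipocytes obtain most of their stored fatty acids from lipoproteins in the blood. Lipoprotein lipase splits the triglyceride, scavenger receptor CD36 and the FATP proteins help the fatty acids into the cell, FABP proteins carry them in the cytosol, and acyl-CoA synthetases trap them as acyl-CoA. In fasting the traffic runs the other way: lipolysis releases fatty acids and glycerol, glycerol leaves through the channel AQP7, and PEPCK, the product of Pck1, supplies glycerol 3-phosphate with which part of the fatty acids is esterified again. White adipocytes have little glycerol kinase and depend on that route, called glyceroneogenesis. Insulin is known to lower Pck1 and Aqp7 transcription in adipocytes, and the nuclear receptor PPARγ is known to activate most of the genes in this set.

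Values are scaled CPM, that is, reads per 1000000 of a library of average size after median-ratio scaling, and they are not divided by transcript length unless stated. The libraries held 60617147 to 70695527 reads in genes. Igf1r itself was at 6.44, 6.47 and 5.86 scaled CPM in the Flox libraries 1 to 3 and at 6.11, 5.27 and 4.85 in the AdIGF1RKO libraries 1 to 3, and the groups overlapped (limma log2 difference -0.18, standard error 0.12, adjusted p = 0.998). These gene-level values cover all cells of the pad and do not separate the deleted part of the gene, so they are no check of the deletion. In bulk tissue fewer cells of a type and less RNA per cell cannot be told apart. Adipocyte markers were high in every library: Adipoq was at 3348 to 4927 scaled CPM, and the 16 mature adipocyte markers in the table took 3.68% to 5.63% of the reads. Some libraries stood apart. Flox 3 and AdIGF1RKO 3 held skeletal muscle RNA, with 19 markers at 13.7% and 4.96% of reads against at most 0.955% in the other 4. AdIGF1RKO 2 had the highest level of lipid-laden macrophage markers, with a sum of 939 scaled CPM over 9 markers against 261 to 296 in the other 5 libraries.

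The promoter of Pck1 is a classical target of hormone signalling, and it is shown here together with that of Aqp7 because the levels of both genes ran closely together across the libraries. RefSeq windows of build GRCm38.p6 were matched for 7 of the 10 genes, in 12 windows because some genes have several start sites, and Lpl, Fabp4 and Fabp5 had no entry. Each window printed is the 250 bases before an annotated start site, written 5′ to 3′ on the strand of the gene. Capitals mark TTACGTCA, the cAMP response element of Pck1, or TGACCT, which is AGGTCA, the hexamer that nuclear receptors bind, read on the other strand. The windows lie at chr2:173152823-173153072 on the plus strand (Pck1) and chr4:41048137-41048386 on the minus strand (Aqp7).
Pck1: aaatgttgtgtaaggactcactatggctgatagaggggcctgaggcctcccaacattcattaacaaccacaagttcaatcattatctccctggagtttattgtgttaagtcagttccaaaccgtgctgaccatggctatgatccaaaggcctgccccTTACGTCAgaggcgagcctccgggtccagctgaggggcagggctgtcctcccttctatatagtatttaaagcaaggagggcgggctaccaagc
Aqp7: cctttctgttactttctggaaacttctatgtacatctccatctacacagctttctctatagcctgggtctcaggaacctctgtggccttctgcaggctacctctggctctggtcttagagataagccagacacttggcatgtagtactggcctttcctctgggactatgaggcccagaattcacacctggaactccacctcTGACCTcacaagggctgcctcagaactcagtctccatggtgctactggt
Of the motifs searched on both strands, TTACGTCA began at -93 from the start site of Pck1 and was in no other window of the 7 genes. It is in 0.447% of all 32851 RefSeq windows of this length. The consensus element TGACGTCA, in 1.55% of all windows, and the paired element DR1, a direct repeat of AGGTCA with 1 base between, in 0.0335%, were in none of the 12. The hexamer AGGTCA, which is contained in that paired element, was in both windows of Aqp7 and in that of Cd36, and it is in 14% of all windows. The Aqp7 windows overlap and share a match, at -49 from the start site of the printed window and -223 from the other. The other window also has a match at -101. These matches describe the letters only.

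None of the 10 genes passed the test between AdIGF1RKO and Flox tissue. In the limma test 0 of 10 had an adjusted p under 0.05, beside 0 of 12993 tested genes (0%), and the adjusted p was 0.998 for each. At an unadjusted p under 0.05 there were 0 of the 10, beside 2.96% of all tested genes. The values of both groups overlapped for all 10 genes, whereas 8.27% of tested genes had groups that did not overlap. Log2 differences (AdIGF1RKO minus Flox, on log2(scaled CPM + 1)) were positive for 5 genes and negative for 5, from -0.35 for Slc27a1 to 0.26 for Fabp5, with a median of 0.047 beside -0.019 over all tested genes. The split depended on the scaling: with the values as deposited 1 of the 10 was positive, and with libraries scaled to equal sums 6 were. On the recovered reads, edgeR's quasi-likelihood test called 0 of the 10 at an adjusted p under 0.05 (0% of tested genes) and 0 at an unadjusted p under 0.05 (2.91%). DESeq2 called 0 of the 10 at an adjusted p under 0.05 (0.178% of tested genes, 23 in number) and 0 at an unadjusted p under 0.05 (3.82%). All 10 passed the filter on low values.

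**Figure D1:**
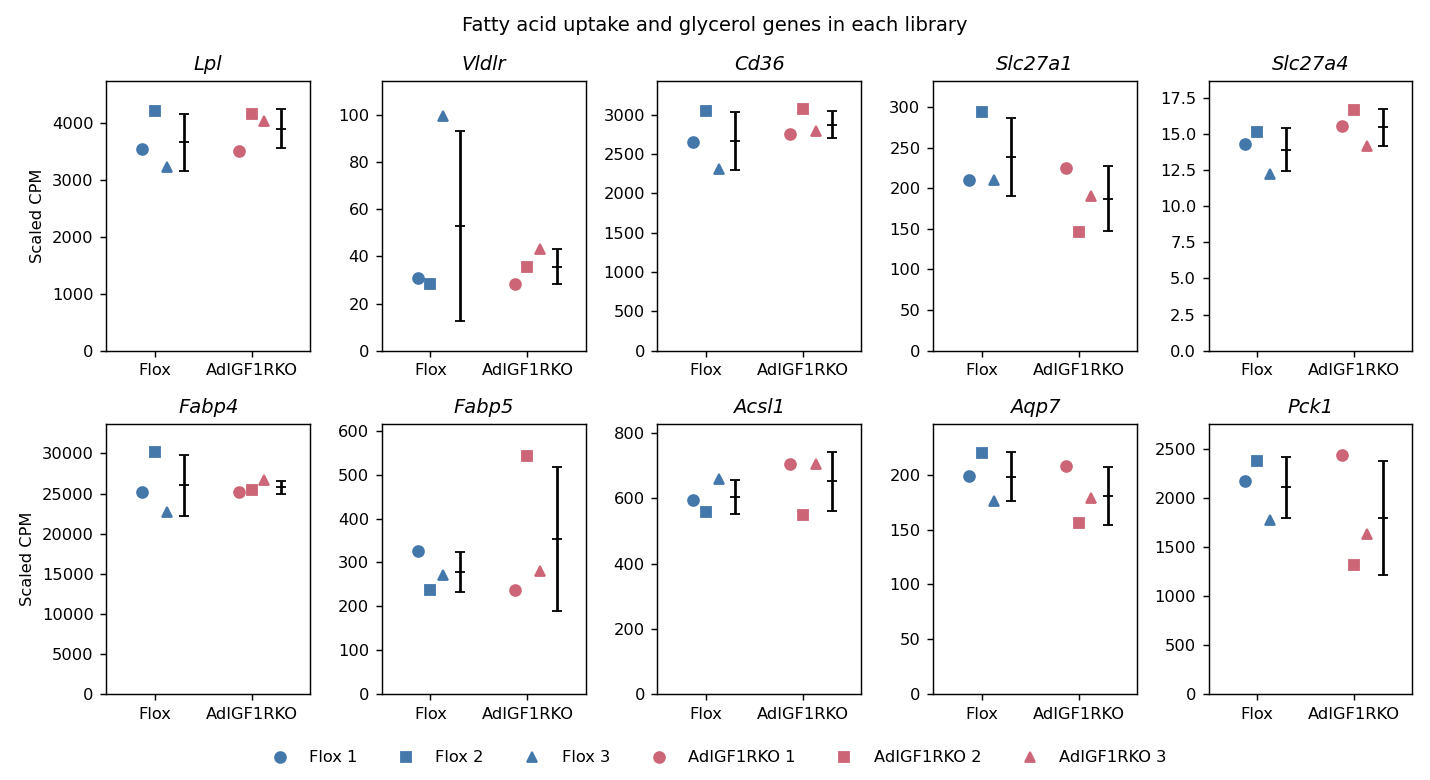
Scaled CPM (vertical axis, from 0) of each gene in the 3 Flox (blue) and 3 AdIGF1RKO (red) libraries, with replicate 1 as circle, 2 as square and 3 as triangle, and black bars for mean and SD. The groups overlap in every panel, Vldlr is high in Flox 3 (99.6), and Fabp5 is high in AdIGF1RKO 2 (542).

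Lpl encodes lipoprotein lipase, which adipocytes secrete to the capillary wall. It was at 3556, 4211 and 3232 scaled CPM in Flox and at 3514, 4173 and 4043 in AdIGF1RKO. The lowest value was that of Flox 3, and Flox 2 and AdIGF1RKO 2 were the highest and nearly equal. The group means were 3666 ± 499 and 3910 ± 349 (SD, n = 3), and the log2 difference was 0.10 with a 95% interval of -0.25 to 0.45 (limma, adjusted p = 0.998). It was 0.011 without Flox 3 and -0.067 with the values as deposited. With 156003 to 295410 reads per library, counting error is small beside the spread between libraries.

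Vldlr, a receptor that binds triglyceride-rich lipoproteins, was at 30.8, 28.3 and 99.6 scaled CPM in Flox and 28.3, 35.5 and 43.3 in AdIGF1RKO. A single library, Flox 3, made up the difference of the means (52.9 ± 40.5 against 35.7 ± 7.51), and the second highest was AdIGF1RKO 3. These 2 are the libraries with most skeletal muscle RNA, and muscle is also known to express Vldlr. The part of muscle RNA in these values was not tested beyond leaving the libraries out and fitting a muscle covariate. The log2 difference was -0.33 (95% interval -1.48 to 0.82), turned to 0.25 without Flox 3 and to 0.10 without both muscle-rich libraries, and did not pass in any of these limma fits. Without Flox 3 the Flox mean was 29.5, below 2 of the 3 AdIGF1RKO values.

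Cd36, the scavenger receptor that facilitates uptake of long-chain fatty acids, was at 2656, 3046 and 2307 scaled CPM in Flox and 2754, 3077 and 2792 in AdIGF1RKO. The AdIGF1RKO values all lay inside or just above the Flox range, whose lowest point was again Flox 3. Its log2 difference was 0.11 (95% interval -0.22 to 0.44), and 0.013 without Flox 3 and -0.050 with the values as deposited.

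The fatty acid transport proteins FATP1 and FATP4, encoded by Slc27a1 and Slc27a4, activate fatty acids as they enter. Slc27a1 was at 211, 294 and 210.4 scaled CPM in Flox and 226, 146 and 190.0 in AdIGF1RKO. Flox 2 was the highest and AdIGF1RKO 2 the lowest, while the other 4 libraries lay between 190.0 and 226. Its group means were 239 ± 48.4 and 187 ± 40.0 (SD, n = 3), and its log2 difference of -0.35 (standard error 0.20, 95% interval -0.85 to 0.14) had an unadjusted limma p of 0.131, the smallest of the 10 in that fit, and an adjusted p of 0.998. It was negative in every alternative tried, from -0.52 with the values as deposited to -0.19 without AdIGF1RKO 2, and passed in none. Slc27a4, at 14.3, 15.2 and 12.3 scaled CPM in Flox and 15.6, 16.7 and 14.1 in AdIGF1RKO, had its lowest value in Flox 3 and its highest in AdIGF1RKO 2. Its log2 difference was 0.15 (95% interval -0.14 to 0.43), and -0.008 with the values as deposited, on 592 to 1201 reads per library.

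The ratio of the reads of both FATP genes within a library does not depend on how libraries are scaled. Slc27a1 reads were 14.7, 19.4 and 17.2 times Slc27a4 reads in Flox and 14.5, 8.73 and 13.4 times in AdIGF1RKO. The lowest Flox ratio was just above the highest AdIGF1RKO ratio, and AdIGF1RKO 2 was far below the rest. This ratio was formed after the values had been seen and was not tested. In the other ratios of reads formed here the groups overlapped. Among single tested genes, 8.27% had groups that did not overlap.

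Fabp4, the fatty acid binding protein of adipocytes also called aP2, was at 25174, 30188 and 22671 scaled CPM in Flox and 25157, 25391 and 26743 in AdIGF1RKO. The 3 AdIGF1RKO values were close together and inside the wider Flox range. Group means were 26011 ± 3827 and 25763 ± 856, and the log2 difference was -0.0041 with a 95% interval of -0.41 to 0.41 (limma). Its sign moved with the scaling, and it was 0.12 with libraries scaled to equal sums.

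Fabp5, the related binding protein that macrophages express as well as adipocytes, was at 327, 237 and 271 scaled CPM in Flox and 237, 542 and 281 in AdIGF1RKO. One library, AdIGF1RKO 2, held 2.00 times the mean of the other 5, which lay between 237 and 327. In that library lipid-laden macrophage markers were also highest: Trem2 was at 62.8 and Spp1 at 182 scaled CPM against at most 12.1 and 12.8 elsewhere; the part of these cells in the Fabp5 value was not tested. The log2 difference was 0.26 (95% interval -0.50 to 1.01), and -0.10 without AdIGF1RKO 2. As a share of Fabp4 reads, Fabp5 reads were 1.30, 0.785 and 1.20% in Flox and 0.941, 2.13 and 1.05% in AdIGF1RKO. Fabp4 itself, at 25391 scaled CPM, was not high in AdIGF1RKO 2. Processed copies of Fabp5 lie elsewhere in the mouse genome, and how reads were divided among them is not given in the sources used here.

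Acsl1, the main long-chain acyl-CoA synthetase of adipocytes, was at 595, 559 and 659 scaled CPM in Flox and 704, 547 and 704 in AdIGF1RKO. AdIGF1RKO 1 and AdIGF1RKO 3 were the highest of all 6 and AdIGF1RKO 2 was the lowest. The log2 difference was 0.10 (95% interval -0.22 to 0.43), and -0.061 with the values as deposited. It was 0.22 without AdIGF1RKO 2, 0.042 without AdIGF1RKO 1 and 0.042 without AdIGF1RKO 3.

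Aqp7, the glycerol channel of the adipocyte membrane, was at 199, 220.5 and 176 scaled CPM in Flox and 208, 156 and 179 in AdIGF1RKO. AdIGF1RKO 2 was the lowest, and the next values, Flox 3 and AdIGF1RKO 3, were those of the muscle-rich libraries. The group means were 199 ± 22.1 and 181 ± 26.2 (SD, n = 3), with a log2 difference of -0.14 (95% interval -0.47 to 0.20). It was -0.037 without AdIGF1RKO 2 and -0.24 without AdIGF1RKO 1.

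Pck1 was at 2176, 2373 and 1772 scaled CPM in Flox and 2441, 1316 and 1633 in AdIGF1RKO. AdIGF1RKO 1 was the highest of all 6 libraries and AdIGF1RKO 2 the lowest, so the AdIGF1RKO group spanned the whole Flox range. Its means were 2107 ± 306 and 1797 ± 580.1, and the log2 difference was -0.27 (standard error 0.24, 95% interval -0.86 to 0.32, limma adjusted p = 0.998). It was -0.51 without AdIGF1RKO 1, where the unadjusted p was 0.0356 and the adjusted limma p 1, and -0.067 without AdIGF1RKO 2. Like Aqp7 and Slc27a1, Pck1 had a negative difference in every alternative tried, and none passed.

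**Figure D2:**
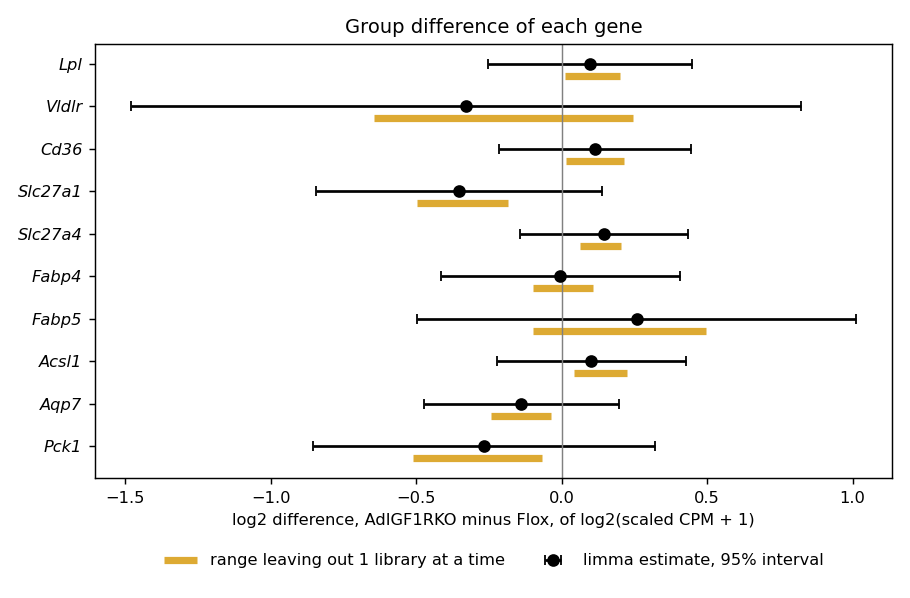
Log2 difference between AdIGF1RKO and Flox of each gene (horizontal axis, on log2(scaled CPM + 1)), with limma's 95% interval in black and the range over the 6 fits that leave out 1 library in yellow. All 10 intervals include 0, and the yellow range crosses 0 for Vldlr (-0.65 to 0.25), Fabp5 (-0.10 to 0.50) and Fabp4 (-0.10 to 0.11).

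Over the fits that leave out 1 library, the difference ran from 0.011 to 0.20 for Lpl, from 0.013 to 0.21 for Cd36 and from 0.063 to 0.21 for Slc27a4, with the lowest value of each without Flox 3. For Slc27a4, the narrowest, the interval of -0.14 to 0.43 stays within 1 unit of log2 on either side of 0, and the same holds for Lpl, Cd36, Fabp4, Acsl1, Aqp7, Pck1 and Slc27a1. For Vldlr and Fabp5 it does not, since their intervals reach -1.48 and 1.01 on the log2 scale.

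Divided by the length of the principal GENCODE M21 transcript (build GRCm38), the levels of the 10 genes could be ordered. In Flox, Fabp4 had 29030 ± 4272 scaled CPM per kilobase (SD, n = 3), far above all others. Lpl (891 ± 121), Pck1 (792 ± 115) and Cd36 (785 ± 109) followed and overlapped one another. Fabp5 came next at 282 ± 45.9, then Acsl1 at 155 ± 13.1, neither overlapping its neighbours. Slc27a1 (85.4 ± 17.3) and Aqp7 (78.6 ± 8.75) overlapped. At the low end, Vldlr had 6.64 ± 5.08 and Slc27a4 3.43 ± 0.367 scaled CPM per kilobase, and these overlapped. In AdIGF1RKO 2 the place of Pck1 was different: at 495 scaled CPM per kilobase it lay below Fabp5 at 549, while it was above Fabp5 in the other 5 libraries.

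Across the 6 libraries several of the genes ran together. Aqp7 and Pck1 had a Pearson correlation of 0.97 on the log2(scaled CPM + 1) scale, Slc27a1 with Aqp7 0.93 and Slc27a1 with Pck1 0.88. Lpl with Cd36 had 0.92 and Lpl with Fabp4 0.81, whereas Lpl with Pck1 had -0.29. Fabp5 ran against Slc27a1, Aqp7 and Pck1, at -0.86 with Slc27a1 and -0.80 with Pck1. These values are descriptions over 6 libraries that share scaling and the muscle-rich libraries, and AdIGF1RKO 2 weighs heavily in several of them. Deviations from the 6-library mean of log2(scaled CPM + 1) show the split in that library, where Slc27a1 was at -0.51, Aqp7 at -0.27 and Pck1 at -0.53, but Lpl at 0.15, Cd36 at 0.16 and Fabp4 at -0.023. The coefficient of variation among the 3 AdIGF1RKO libraries was 46.7% for Fabp5 and 32.3% for Pck1 against 16.3% and 14.5% in Flox, and for Fabp4 it was 3.32% against 14.7%. Mature adipocyte markers had a median deviation of -0.11 in AdIGF1RKO 2, beside -0.11 in Flox 3 and -0.085 in Flox 1, so that median was not particular to it. Their sum was nevertheless lowest in AdIGF1RKO 2, at 37863 scaled CPM against 42645 to 54273 in Flox. Adipoq, Cfd, Car3, Pnpla2, Adrb3 and Plin4 were each lowest there, and Lep, Dgat2, Gpd1 and Cidea each highest.

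**Figure D3:**
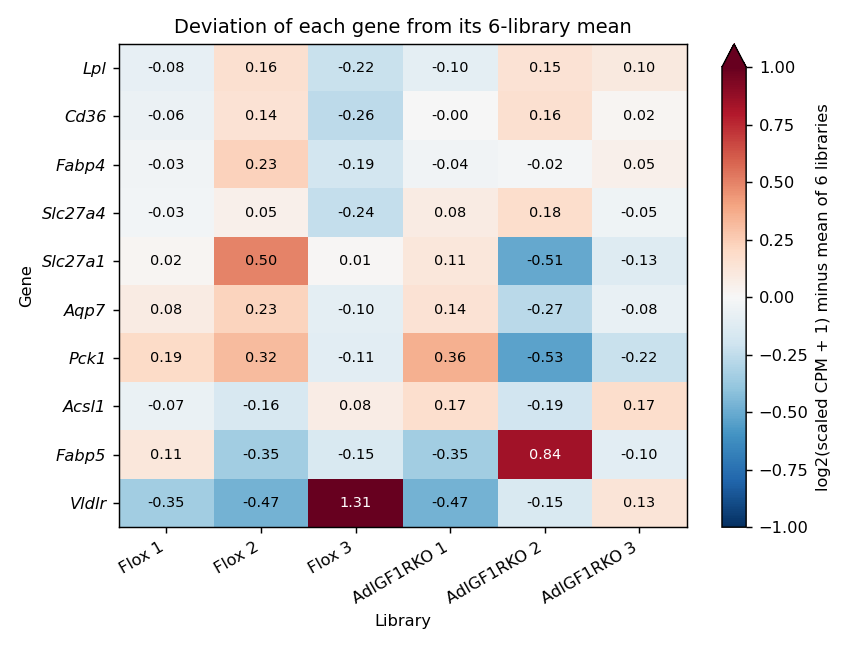
Deviation of each gene (rows) in each library (columns) from its mean over the 6 libraries, in units of log2(scaled CPM + 1), with red above and blue below the mean. Vldlr in Flox 3 (1.31) and Fabp5 in AdIGF1RKO 2 (0.84) are the highest entries, and Pck1 in AdIGF1RKO 2 (-0.53) the lowest.

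Other cell types were set beside the genes through marker lists. Every gene of the deposited table had at least 1 read in each library. A marker above 0 therefore does not show by itself that its cell type was present. The 19 muscle markers summed to 1105 to 171998 scaled CPM in Flox and 538 to 50364 in AdIGF1RKO, and Acta1, the skeletal muscle actin, was at 63.7 even in the library with the least. Vldlr followed them at the top, with Flox 3 and AdIGF1RKO 3 first and second in both. In the 4 libraries with little muscle RNA, Vldlr lay between 28.3 and 35.5 scaled CPM. General macrophage markers, 10 in number, summed to 1800 to 2831 in Flox and 2070 to 3268 in AdIGF1RKO, with the highest in AdIGF1RKO 2. Lyz2 made up 1901 of the sum in that library. Csf1r, Mrc1, Cd163, C1qa and C1qb were each highest in a Flox library, and the rest of the list in AdIGF1RKO 2. Endothelial markers, relevant because capillary cells also express Cd36 and Fabp4, summed to 712 to 850.4 over 12 genes in Flox and 843 to 991 in AdIGF1RKO. Adipocyte progenitor markers, 9 in number, summed to 4234 to 5057 and 4058 to 4744. For 5 brown or beige adipocyte markers the sums were 367 to 2377 and 441 to 1003, and Ucp1 is not analysed here. The highest sum of each group was in its muscle-rich library, Flox 3 and AdIGF1RKO 3. In Flox 3, Cox8b was at 1475 and Cox7a1 at 821 scaled CPM, whereas Cidea was at 75.2 there and at 107 in Flox 1. The part of muscle RNA in these sums was not tested. Lymphocyte markers (8 genes) stayed at 27.1 to 56.4 and 38.8 to 51.4, and the 2 epithelial markers in the table at no more than 5.61. The part of any of these cells in the 10 genes was not tested beyond the fits that leave libraries out, use a muscle covariate or scale to adipocyte markers. With the covariate the Vldlr log2 difference was -0.080, and with adipocyte scaling the differences of Slc27a1 and Pck1 were -0.41 and -0.33. The 16 adipocyte markers behind that scaling include Lep (159 to 277 scaled CPM in Flox, 396 to 580 in AdIGF1RKO) and Dgat2 (549 to 631 and 788 to 1218). Both were higher in AdIGF1RKO without overlap, beside 8.27% of all tested genes with groups that did not overlap. Of the 16, 7 had a higher AdIGF1RKO mean on the log2 scale and the others a lower one. Differences of single markers between groups therefore enter the scaling factor, and their effect on it was not tested.

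**Figure D4:**
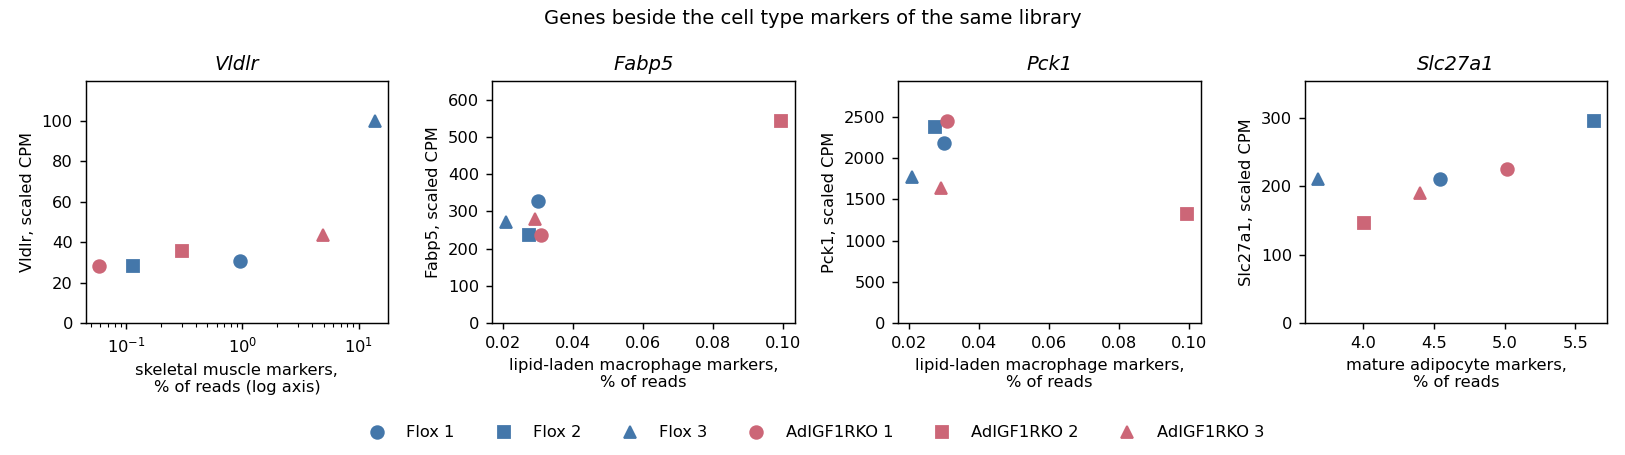
Scaled CPM of Vldlr, Fabp5, Pck1 and Slc27a1 (vertical axes, from 0) against the percent of reads in a marker list of the same library (horizontal axes, logarithmic for muscle), with Flox in blue and AdIGF1RKO in red. Vldlr is highest where muscle markers took 13.7% of reads, and Fabp5 is highest and Pck1 lowest in AdIGF1RKO 2, where lipid-laden macrophage markers took 0.0994%.

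The partners of lipoprotein lipase were set beside Lpl. Of 16 genes for lipase handling and lipoprotein uptake, all tested, 11 had a positive and 5 a negative log2 difference (median 0.10) and 0 passed the limma test. Over all tested genes 44.8% were positive. The list median depended on scaling and on single libraries. It was -0.065 with the values as deposited, 0.22 with libraries scaled to equal sums, and -0.0048 without Flox 3. The groups did not overlap for 2 of the 16, beside 8.27% of all tested genes. Gpihbp1, which anchors the lipase to capillaries, was at 312, 387 and 278 scaled CPM in Flox and 355, 330.1 and 333 in AdIGF1RKO. Gpihbp1 reads were 8.78, 9.19 and 8.60% of Lpl reads in Flox and 10.1, 7.91 and 8.24% in AdIGF1RKO. Angptl4, a lipase inhibitor that fasting induces in fat, was at 493, 556 and 416 scaled CPM in Flox and 582, 407 and 519 in AdIGF1RKO, with the lowest value in AdIGF1RKO 2. Angptl8, a secreted partner of the lipase inhibitors that feeding induces, was at 10.4, 9.84 and 6.46 in Flox and 6.90, 24.4 and 11.2 in AdIGF1RKO, with the highest value in that same library. Gpihbp1, Angptl4 and Angptl8 were chosen after their values were seen. Apoc3 and Apoc1 had the smallest unadjusted p in the list. Apoc3, an apolipoprotein that inhibits lipolysis of lipoproteins, was at 5.38, 5.20 and 4.89 scaled CPM in Flox and 1.88, 4.64 and 2.00 in AdIGF1RKO without overlap (log2 difference -0.75, unadjusted p = 0.0302, limma adjusted p = 0.998). Apoc1, another inhibitor, was at 637, 648 and 749.9 in Flox and 489, 549 and 621 in AdIGF1RKO, also without overlap (log2 difference -0.30).

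Among 20 other genes of fatty acid uptake and activation, 19 were in the table and 15 were tested, of which 7 had a positive and 8 a negative log2 difference (median -0.027) and 0 passed. The 3 smallest unadjusted p were those of Cav2, Cav1 and Cavin2, which encode proteins of caveolae, membrane pits that are dense in adipocytes. Cav1 was at 1937, 2265 and 1570 scaled CPM in Flox and 2275, 2466 and 2313 in AdIGF1RKO, a log2 difference of 0.30 with no overlap (unadjusted p = 0.091, limma adjusted p = 0.998). Cavin2 was at 299.6, 314 and 264 in Flox and 339, 322 and 333 in AdIGF1RKO, also without overlap, and Cav2 at 417, 457 and 377 in Flox and 439, 531 and 539 in AdIGF1RKO, which overlapped. Flox 3 was the lowest library for all 3 genes, and without it the Cav1 difference was 0.17. Cavin1, another caveola gene of the list, named after its values were seen, was at 553, 613 and 502 in Flox and 636, 507 and 542 in AdIGF1RKO (log2 difference 0.013). Caveola genes are also expressed in endothelium. Fabp3, the muscle form of the binding protein, had its lowest level, 1.14 scaled CPM, in AdIGF1RKO 1 and its top level, 177, in Flox 3, where muscle RNA was also highest. Fabp3 was named after its values were seen.

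Of 18 further genes of glycerol use and glyceroneogenesis, 17 were in the table and tested, with 6 positive and 11 negative log2 differences (median -0.058) and 0 past the threshold. Aqp9, a second glycerol channel, was at 3.24, 2.10 and 2.30 scaled CPM in Flox and 1.66, 1.34 and 1.21 in AdIGF1RKO, without overlap (log2 difference -0.55, unadjusted p = 0.0196, limma adjusted p = 0.998), on 77 to 229 reads per library. Pdk2, a kinase that inhibits pyruvate dehydrogenase, was at 71.7, 63.2 and 167 in Flox and 57.2, 41.9 and 87.2 in AdIGF1RKO, with the highest values in the muscle-rich libraries. Gk, the glycerol kinase gene, was at 4.97, 4.09 and 3.63 in Flox and 4.75, 7.22 and 4.35 in AdIGF1RKO, with its highest value in AdIGF1RKO 2. Gpd1, which makes glycerol 3-phosphate from a glycolytic intermediate, was at 549, 468 and 767 in Flox and 515, 907 and 645 in AdIGF1RKO. Pck1 reads were 3.96, 5.07 and 2.31 times Gpd1 reads in Flox and 4.74, 1.45 and 2.53 times in AdIGF1RKO, lowest in AdIGF1RKO 2, where Gpd1 was highest and Pck1 lowest. Aqp7 reads were 40.0, 53.9 and 48.6 times Gk reads in Flox and 43.8, 21.6 and 41.1 times in AdIGF1RKO. Gpd1 and these ratios were chosen after values were seen, and no ratio was tested.

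Of 18 transcription regulators of such genes, all tested, 7 had a positive and 11 a negative log2 difference (median -0.078) and 0 passed. Pparg, the master regulator of adipocyte genes, was at 140.2, 173 and 154 scaled CPM in Flox and 159, 266 and 198 in AdIGF1RKO. Its 2 highest values were AdIGF1RKO 2 and AdIGF1RKO 3, while AdIGF1RKO 1 lay within the Flox range (log2 difference 0.38, unadjusted p = 0.0933, limma adjusted p = 0.998). Without AdIGF1RKO 2 the difference was 0.19. Crtc2, a coactivator of CREB at cAMP response elements such as the one capitalised in the Pck1 window, was at 35.7, 36.9 and 38.6 in Flox and 33.0, 30.8 and 32.4 in AdIGF1RKO, without overlap (log2 difference -0.20, unadjusted p = 0.0488, limma adjusted p = 0.998). Its group means were 37.1 ± 1.50 and 32.1 ± 1.12 (SD, n = 3), and scaling to equal sums gave -0.082 for the log2 difference. Ppara, a nuclear receptor of fat oxidation, was at 7.60, 4.23 and 6.92 in Flox and 2.81, 2.76 and 7.15 in AdIGF1RKO.

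For each of the 10 genes, the tested gene with the most similar course over the 6 libraries was found by Pearson correlation on log2(scaled CPM + 1) among 12983 others. Aqp7 was closest to Pde3b, the phosphodiesterase through which insulin restrains lipolysis (r = 0.997), and Pde3b was at 140.4, 152 and 126 scaled CPM in Flox and 143, 116 and 129.6 in AdIGF1RKO. Cd36 was closest to Npc2, a lysosomal cholesterol carrier (r = 0.997), and Vldlr to Igsf3 (r = 0.9998). Igsf3 was a low gene, at 3.27 scaled CPM in the muscle-rich Flox 3 and at most 1.39 elsewhere. Slc27a1 was closest to Tmt1a (r = 0.993), Slc27a4 to Rwdd2a (r = 0.999) and Pck1 to Usp35 (r = 0.986). For Lpl it was Tmem29 (r = 0.998), for Fabp4 Asap3 (r = 0.995), for Fabp5 Zfp442 (r = 0.994) and for Acsl1 Gnb1l (r = 0.980). Zfp442 was also low, at 2.67 scaled CPM in AdIGF1RKO 2 and at most 1.30 elsewhere. These correlations are the highest of 12983 for each gene and describe a shared course in 6 libraries only.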

How the data were processed

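The table, deposited by the authors as FPKM, holds 14861 genes in 6 libraries, with the genome build GRCm39 per the submitters' processing notes. No source used here names the aligner, the counter or the annotation. The deposited values are a signal that, within a rounding tolerance of 0.5, is a whole number of reads times 1000000000 over 1 divisor per library (100% of values), not divided by length. The recovered reads were scaled by median-ratio size factors (0.731 to 1.17), and 1 read is worth 0.013 to 0.0207 scaled CPM. Total reads are not independent molecules, so counting error is a lower limit. Genes with a mean of at least 1 (12993) were fitted with limma 3.58.1 (R 4.3.3) on log2(scaled CPM + 1) with an intensity trend, two-sided, with Benjamini-Hochberg adjustment over all tested genes at 0.05. The log2(value + 1) scale understates changes of low genes. edgeR 4.0.16 and DESeq2 1.42.0 on the recovered reads were alternatives. The limma procedure was tested on simulated data. The simulation gave every gene the same relative spread beyond counting and had no library rich in muscle or macrophage RNA. It therefore does not show how the procedure behaves with the libraries that stood apart here. Promoter windows are from RefSeq (GRCm38.p6) and transcript lengths from GENCODE M21 (GRCm38), an earlier build than the authors', so they serve as context only.

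The members and lists were chosen with earlier results of these data known. Named genes are the 10 members, the 3 genes with the smallest unadjusted p in each of 4 pathway lists, the most alike gene of each member, Igf1r, and Adipoq, Acta1, Ckm, Trem2 and Spp1 as markers. The values of 1 gene that this rule names are not reported here. Ckm was at 31.2 to 13603 scaled CPM over the 6 libraries, highest in Flox 3. Both groups use replicate numbers 1 to 3. Same-numbered libraries deviated from their group means together, with correlations of 0.35, 0.35 and 0.83 over genes. Libraries with different numbers reached 0.70 (Flox 2 with AdIGF1RKO 1) and 0.33 (Flox 1 with AdIGF1RKO 2), and no label states a pairing. The replicate block was an alternative.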

Additional observations from a re-analysis of the deposited data

How the results depend on the processing

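None of the 10 genes passed the threshold in any of the 17 alternatives: 0 of 10 in each, beside 0 genes over the table except 1 without Flox 1 and 23 with DESeq2 (17 higher, 6 lower). In the fit with the replicate block the count stayed 0 in the 10 and over the table, the smallest adjusted p of the 10 was 0.914, and no call changed. Scaling sets the sign of small differences. The values as deposited shifted the median of all tested genes to -0.17, from -0.019, and turned Lpl to -0.067, Cd36 to -0.050, Slc27a4 to -0.00803 and Acsl1 to -0.061, all above that median and leaving Fabp5 as the 1 positive gene of the 10. Equal sums shifted the median to 0.094 and turned Fabp4 to 0.12. They also turned the list medians of other fatty acid uptake genes (0.089), glycerol genes (0.060) and transcription regulators (0.041) positive. The share of tested genes with a positive difference was 44.8%, 14.8% and 72.3% with these 3 scalings. Without both muscle-rich libraries Lpl turned to -0.015 and Vldlr to 0.10. Leaving out 1 library at a time gave ranges of -0.10 to 0.11 for Fabp4 (turned without Flox 2, AdIGF1RKO 1 or AdIGF1RKO 2), -0.10 to 0.50 for Fabp5 (turned without AdIGF1RKO 2) and -0.65 to 0.25 for Vldlr (turned without Flox 3), and counts of 0 to 1 gene over the table. The pseudocount and the filters turned no sign. With 3 libraries a group the intervals are wide, and the cause of these shifts was not tested.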
